A study of Mus musculus with 2 samples.

Results

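Cathepsins are the main proteases of the lysosome, the acidic compartment in which cells break down what they take up and what they recycle. The 9 genes described here, Ctsa, Ctsb, Ctsc, Ctsd, Ctsh, Ctsk, Ctsl, Ctsw and Ctsz, were taken by their symbols from the 55357 genes listed for both libraries, and each had UMIs (unique molecular identifiers, which count captured mRNA molecules) in both. The study profiled MC38 tumours, grown from a mouse colon carcinoma line, by 10x Genomics 3′ single-cell RNA sequencing of sorted CD45+ 7-AAD- cells, that is living cells with a leukocyte surface marker. The first library came from SPP1fl/fl-Lyz2-icre mice, called Lyz2-icre here, and the other from SPP1fl/fl mice, called control. Both carry the loxP-flanked Spp1 gene, which encodes osteopontin, and the Lyz2-driven Cre recombinase acts in cells of the myeloid lineage, mainly macrophages, monocytes and neutrophils. The labels give neither the number, age nor sex of the mice, nor which exons of Spp1 are flanked.

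Cathepsins are made as inactive proenzymes and sorted to the lysosome, largely by mannose 6-phosphate receptors, where acid activates them. In macrophages they digest engulfed proteins, help to load peptides onto MHC class II molecules and, when secreted, cut the extracellular matrix. In cytotoxic lymphocytes cathepsin C trims the granzymes to their active form. Many lysosomal genes carry CACGTG, the core of the motif bound by the TFEB family of transcription factors.

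The libraries held 13944 barcodes (Lyz2-icre) and 9154 barcodes (control), of which 13915 and 8724 passed the filters, with medians of 6374 UMIs per cell (Lyz2-icre) and 9379.5 UMIs per cell (control). The libraries shared 43 barcodes. Each library held cells with Xist and no Y-linked transcripts, called female, and cells with Y-linked transcripts and no Xist, called male. These numbered 7766 and 2453 cells in Lyz2-icre and 5201 and 1798 cells in control, so each library pooled animals of both sexes. Cells with both or with none, 3696 (Lyz2-icre) and 1725 (control), were left out of the splits by sex. With 1 library per genotype there is no replicate check, no test was run, and every interval below covers counting error only. Levels are UMIs of a gene per 1000000 UMIs of a cell class (CPM). Since the 3′ method tags each molecule at its end, they are not divided by gene length, and levels of different genes set side by side are UMI levels.

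The targeted gene was checked first. Spp1 stood at 4.23 CPM in Lyz2-icre macrophages (318 UMIs), against 620 CPM in control macrophages (37305 UMIs), a ratio of 0.00681 (95% interval 0.00608 to 0.00761). Over all kept cells it stood at 28.3 CPM (Lyz2-icre) and 730 CPM (control). The 3′ tag may lie outside the flanked exons.

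Cells were placed in classes by markers. Macrophage-gated cells, chosen by the complement genes C1qa, C1qb and C1qc, made up 71.7% of Lyz2-icre cells (9972 cells) and 63.3% of control cells (5519 cells). The markers Adgre1, Ms4a7, Mrc1 and Csf1r, which the gate did not use, were each at least 3-fold over the median of the other classes in both libraries. In 10 classes, each library had 50 cells or more, and genotypes were compared only there. Neutrophil-gated cells, another target of Lyz2-driven Cre, numbered only 40 (Lyz2-icre) and 129 (control).

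Promoters of 3 members carry CACGTG, and the stretches around it are shown. No link between the motif and any level reported here was tested. RefSeq (build GRCm38.p6) windows of 300 bases, 250 before the start site and 50 after it, were available for 6 of the 9 members, with none for Ctsb, Ctsh and Ctsw. CACGTG, which reads the same on both strands, was found in the windows of 3 members, Ctsa, Ctsd and Ctsl, and in 7.15% of all 32851 windows. The longer form TCACGTGA, which contains it, was found in Ctsa and Ctsd, and in 0.974% of all windows. Ctsa had more than 1 window. That at the start of the gene (chr2:164832622-164832921) had no match of either form. All Ctsa matches lay in a window inside the gene (chr2:164833523-164833822). Stretches of 30 bases follow, 5′ to 3′ on the gene's strand, with CACGTG in capitals.
Ctsa, chr2:164833758-164833787, plus strand: tgtCACGTGatgcagatgctCACGTGacca
Ctsd, chr7:142388048-142388077, minus strand: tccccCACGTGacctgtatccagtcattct
Ctsd, chr7:142387908-142387937, minus strand: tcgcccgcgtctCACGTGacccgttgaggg
Ctsl, chr13:64370739-64370768, minus strand: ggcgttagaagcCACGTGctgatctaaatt
The Ctsa matches begin at -12 and 5 bases from the start site of the window inside the gene, not from the start of the gene. Those of Ctsd begin at -245 and -98 bases from the start site of its window, and that of Ctsl at -236 bases from that of its own. By the gene positions given below, the -98 stretch of Ctsd and the Ctsl stretch also lie inside the gene. The -245 stretch of Ctsd lies before the start of the gene. A match of letters is a description and does not show that a factor binds there.

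In macrophages the cathepsins formed a sizeable share of the transcriptome. Together the 9 genes made up 0.679% of all UMIs in Lyz2-icre macrophages and 0.632% in control macrophages. Cathepsin C led with 25.7% (Lyz2-icre) and 24.7% (control) of these cathepsin UMIs, followed by Ctsb with 21.1% (Lyz2-icre) and 22.9% (control), Ctsz with 18.7% (Lyz2-icre) and 18.5% (control), and Ctsd with 12.8% (Lyz2-icre) and 11.8% (control). Their summed level was 6788 CPM in Lyz2-icre macrophages and 6315 CPM in control macrophages, a ratio of 1.07. Of the 7 members at 10 CPM or more, 0 differed by 1.5-fold, where 0.581% of the 7920 genes at that level were higher and 1.43% were lower in Lyz2-icre by that fold. The median log2 ratio of those 7 members was 0.12, against -0.02 for all genes tested.

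**Figure D1:**
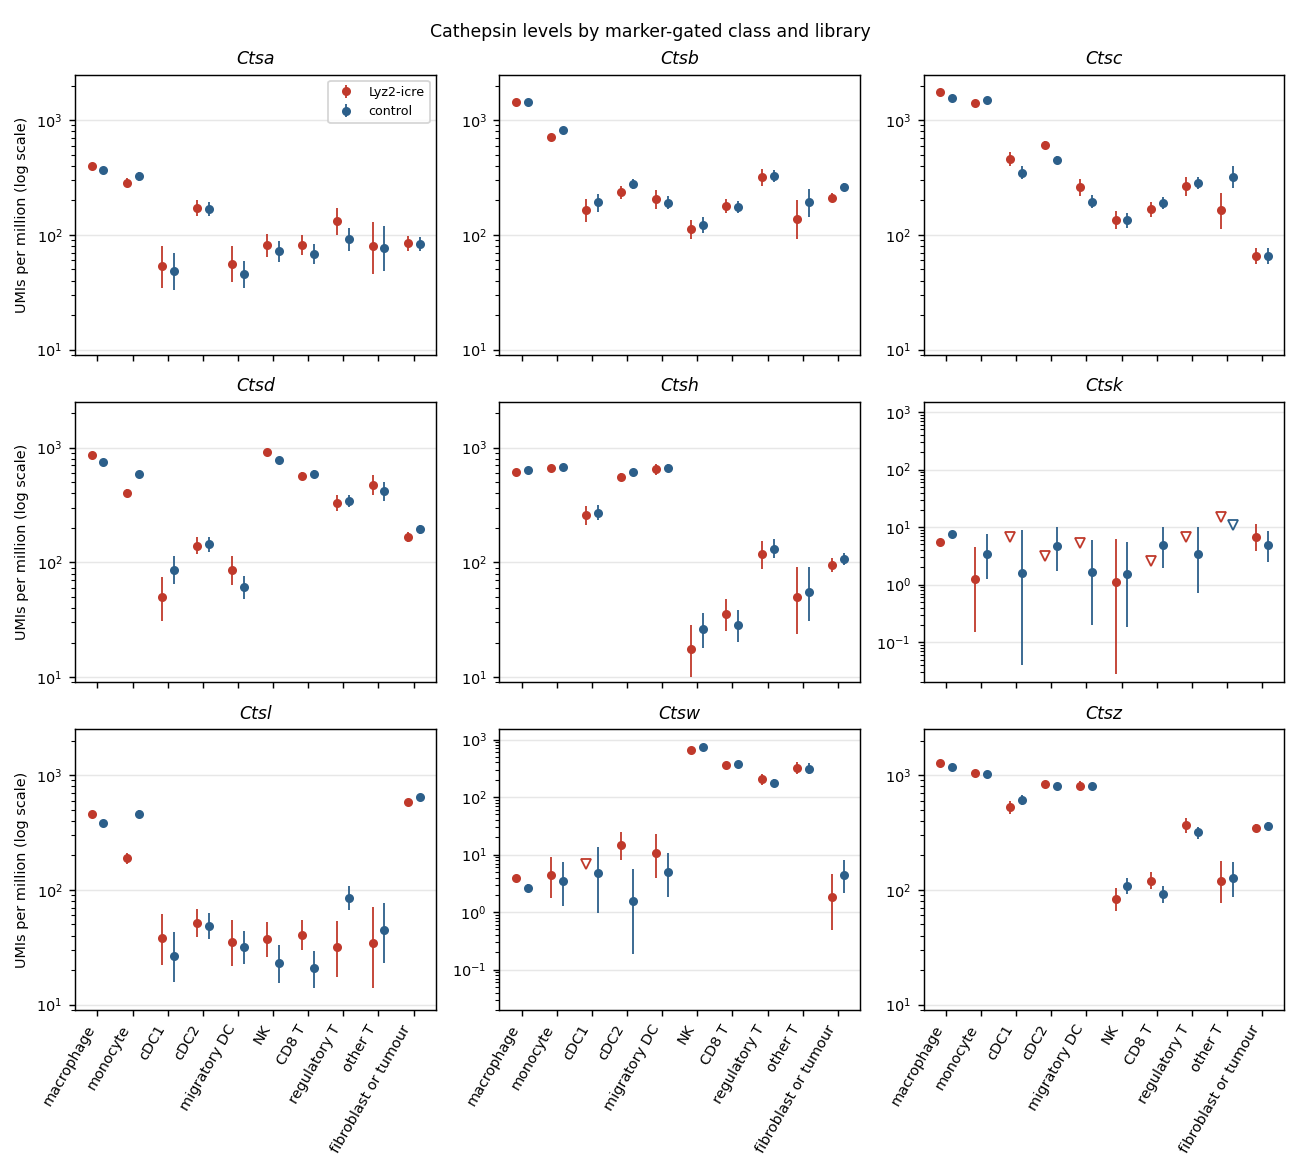
Level of each cathepsin in CPM (log axis) in the 10 cell classes compared, Lyz2-icre left of control, with 95% Poisson intervals of counting error; open triangles mark the limit of 3 counts where no UMI was seen. Ctsc in macrophages stood at 1746 CPM (Lyz2-icre) and 1559 CPM (control), while Ctsw was highest in NK cells.

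Among the cysteine endopeptidases, Ctsb and Ctsl behaved differently in macrophages (gene positions are on build mm10). Ctsb (chr14:63122462-63145923), a broad cysteine protease that also removes dipeptides from protein ends, stood at 1434 CPM in Lyz2-icre and 1447 CPM in control macrophages, a ratio of 0.992 (0.983 to 1.0). Ctsl (chr13:64359337-64370890), a potent endopeptidase, stood at 455 CPM in Lyz2-icre against 379 CPM in control, a ratio of 1.2 (1.18 to 1.22), the largest of the 7. After every cell was thinned to 2000 UMIs, 47.2% of Lyz2-icre and 44.4% of control macrophages had a Ctsl UMI.

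The aspartic protease Ctsd (chr7:142375911-142388038), which starts the digestion of many proteins in the lysosome, stood at 869 CPM in Lyz2-icre macrophages and 747 CPM in control macrophages, a ratio of 1.16 (1.15 to 1.18). Ctsd and Ctsl overlap the predicted genes Gm49369 and Gm49230 on the same strand, so the assignment of some of their reads is uncertain.

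Among the enzymes that trim protein ends, Ctsc (chr7:88278085-88310888), which removes dipeptides and activates granule proteases, stood at 1746 CPM in Lyz2-icre and 1559 CPM in control macrophages, a ratio of 1.12 (1.11 to 1.13). Ctsz (chr2:174427493-174439039), a carboxypeptidase also called cathepsin X, stood at 1267 CPM (Lyz2-icre) and 1166 CPM (control). The aminopeptidase Ctsh (chr9:90054152-90076089) was lower in Lyz2-icre, 609 CPM against 641 CPM in control, a ratio of 0.95 (0.937 to 0.963). Ctsa (chr2:164832873-164841032), a serine carboxypeptidase that also shields beta-galactosidase and neuraminidase from degradation, stood at 399 CPM (Lyz2-icre) and 367 CPM (control). These gaps are outside counting error, but how far 2 libraries of the same genotype would differ cannot be told from these data.

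The macrophage ratios moved with sequencing depth and with the sex of the cells. In macrophages of 500 to 3000 UMIs the summed cathepsin level was 7512 CPM in 1500 Lyz2-icre cells and 8648 CPM in 431 control cells, a ratio of 0.869. The ratio was 0.912 in cells of 3000 to 6000 UMIs, 1.03 in cells of 6000 to 12000 UMIs and 1.08 in cells of 12000 UMIs or more. Its direction was thus opposite in shallow and deep cells. From the shallowest to the deepest cells, the Ctsd ratio was 0.849, 0.753, 1.08 and 1.19, and the Ctsc ratio 0.885, 1.06, 1.14 and 1.13.

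**Figure D2:**
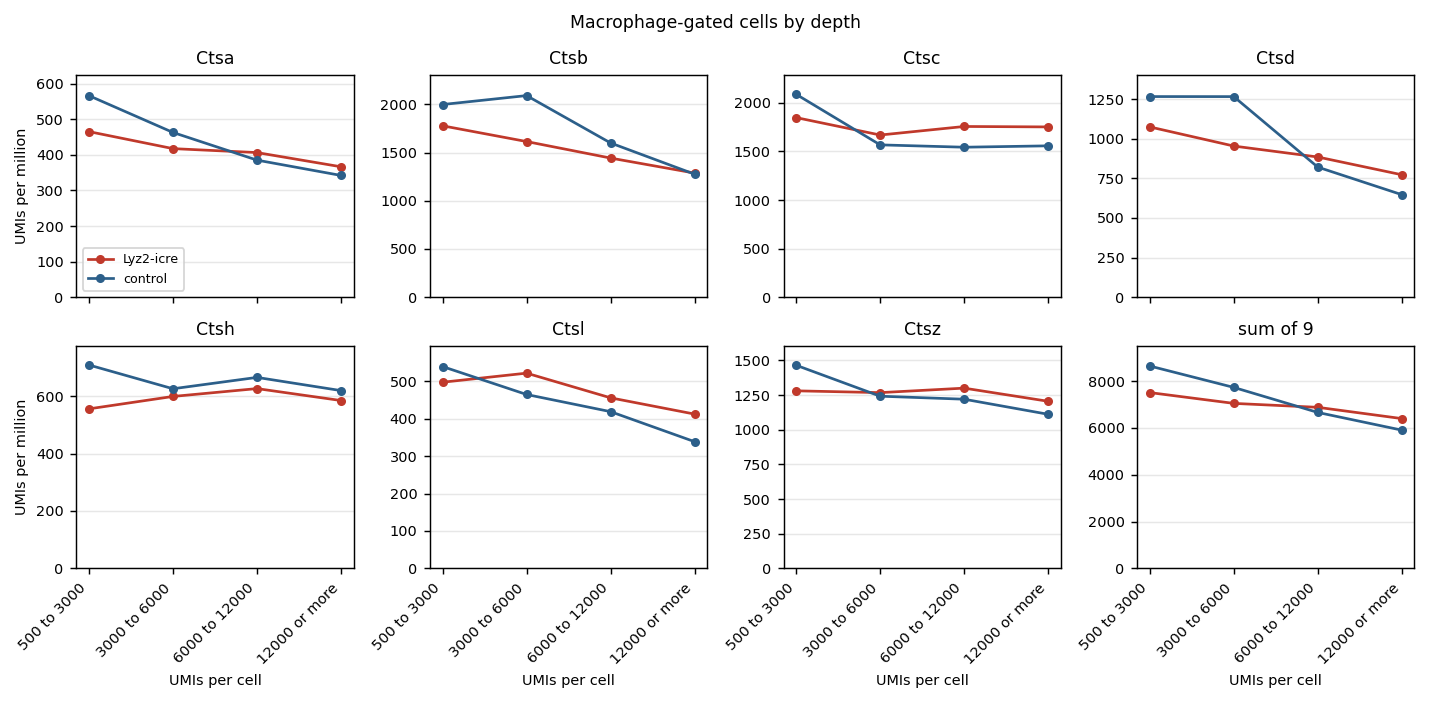
Level in CPM (UMIs per 1000000) of 7 cathepsins and of the sum of all 9 in macrophage-gated cells, by UMIs per cell, with a line for Lyz2-icre and a line for control. In cells of 500 to 3000 UMIs the sum was 7512 CPM (Lyz2-icre) and 8648 CPM (control), and in cells of 12000 UMIs or more 6400 CPM (Lyz2-icre) and 5906 CPM (control).

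Split by sex, the sum of the 9 differed little, with a ratio of 1.08 in female cells (5719 Lyz2-icre and 3311 control) and 1.06 in male cells (1846 Lyz2-icre and 1307 control). Single cathepsins did not follow that pattern. Ctsl stood at 481 CPM in Lyz2-icre and 361 CPM in control female macrophages, a ratio of 1.33 (1.3 to 1.36). In male macrophages it stood at 393 CPM (Lyz2-icre) and 408 CPM (control), a ratio of 0.963 (0.929 to 0.998). Ctsz was likewise higher in female Lyz2-icre macrophages, with a ratio of 1.16, and slightly lower in male ones, with 0.965. Ctsh went the other way, with 0.919 in female and 1.05 in male cells, and Ctsc was at 1.07 in female and 1.22 in male cells. Within the range of 6000 to 12000 UMIs the Ctsl ratio was 1.31 in female and 0.763 in male cells. The number of animals behind each sex is not in the labels, and sex and animal cannot be told apart.

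**Figure D3:**
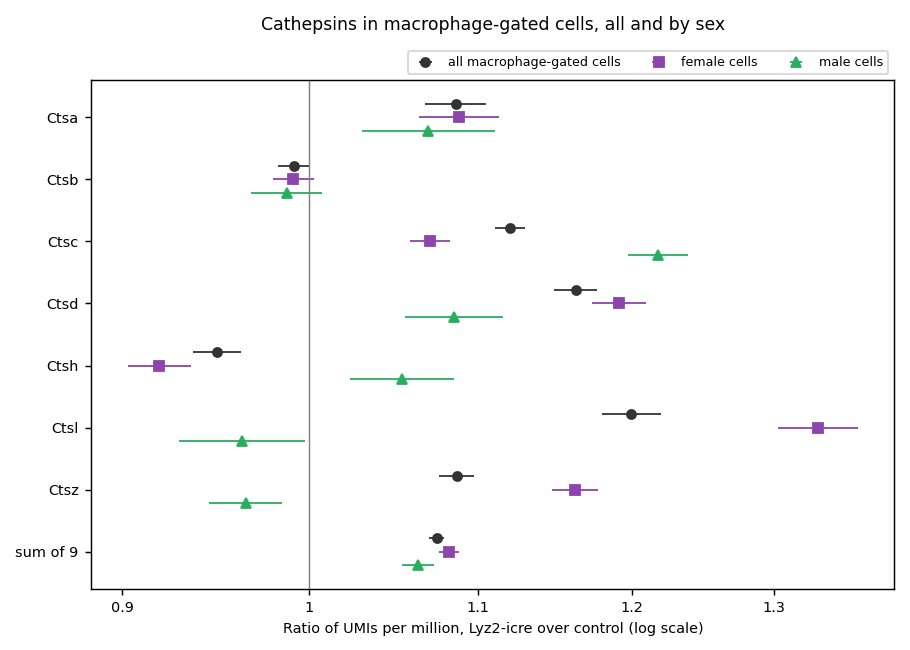
Ratio of CPM, Lyz2-icre over control, in macrophage-gated cells for 7 cathepsins and the sum of all 9 (log axis), for all, female and male cells, with 95% intervals of counting error. Ctsl lies at 1.33 in female and 0.963 in male cells, on either side of 1.

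Levels of Ctsl, Ctsd and Ctsb varied more between macrophage states than between genotypes. States were set in cells thinned to 2000 UMIs: cells with 2 or more UMIs of a marker are set against cells with 0, within a library, and cells with 1 are left out. Macrophages with Arg1, the arginine-degrading enzyme of alternatively activated macrophages, had a Ctsl level of 694 CPM in Lyz2-icre, against 268 CPM without Arg1, and of 650 CPM in control, against 270 CPM without Arg1. The ratios were 2.59 (Lyz2-icre) and 2.40 (control). Ctsd was 1.96 times as high with Arg1 in Lyz2-icre and 1.34 times as high in control. Ctsb was at 1717 CPM with and 1200 CPM without Arg1 in Lyz2-icre, while in control it was at 1411 CPM with and 1462 CPM without. Ctsl was thus higher with Arg1 in both libraries, while the Ctsb ratio was 1.43 (Lyz2-icre) and 0.965 (control), a difference that was not tested. Ctsh was at a ratio of 0.953 (Lyz2-icre) and 0.922 (control).

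Cells with 2 or more Arg1 UMIs made up 38.4% of thinned Lyz2-icre macrophages and 21.9% of thinned control macrophages. The level of Ctsl within those cells differed less between genotypes, 694 CPM (Lyz2-icre) and 650 CPM (control), than over all macrophages. In cells without Arg1 it was 268 CPM (Lyz2-icre) and 270 CPM (control).

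Macrophages with Ccl8, a chemokine that draws monocytes and T cells, showed the highest Ctsb of the 6 states. It was 2343 CPM with Ccl8 in Lyz2-icre, against 1231 CPM without, and 2327 CPM with Ccl8 in control, against 1346 CPM without. Ctsd was 1.94 times as high with Ccl8 in Lyz2-icre and 1.5 times as high in control. Ctsl, in contrast to its pattern with Arg1, was 1.51 times as high in Lyz2-icre and at 0.991 (0.938 to 1.05) in control. Cells with 2 or more Ccl8 UMIs were 14.1% of thinned macrophages in Lyz2-icre and 6.84% in control.

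Macrophages with Cxcl9, an interferon-induced chemokine that attracts T cells, showed another mix. Ctsc was higher in them, with ratios of 1.24 (Lyz2-icre) and 1.18 (control), as was Ctsz, with 1.17 (Lyz2-icre) and 1.28 (control). Ctsd was lower, with 0.704 (Lyz2-icre) and 0.617 (control), and so was Ctsl, with 0.619 (Lyz2-icre) and 0.607 (control). With Il1b, the inflammatory cytokine interleukin-1 beta, Ctsb stood at 0.704 (Lyz2-icre) and 0.686 (control), and Ctsd at 0.691 (Lyz2-icre) and 0.741 (control).

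Cycling macrophages, found by Mki67, Top2a, Cdk1 and Birc5, had lower cathepsin levels (CPM) in both libraries. The sum of the 9 stood at 0.783 (Lyz2-icre) and 0.788 (control) of the level in macrophages with 0 such UMIs. Among the 7 members at 10 CPM or more, Ctsl had the lowest ratio, with 296 CPM in cycling and 514 CPM in non-cycling Lyz2-icre macrophages, and 239 CPM in cycling and 435 CPM in non-cycling control macrophages. Ctsc had the ratio closest to 1, with 0.995 (Lyz2-icre) and 0.955 (control). Cycling cells were also deeper, with medians of 10094 against 7078 UMIs in Lyz2-icre and 14796 against 9973 UMIs in control. The part of depth in this result was not tested.

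**Figure D4:**
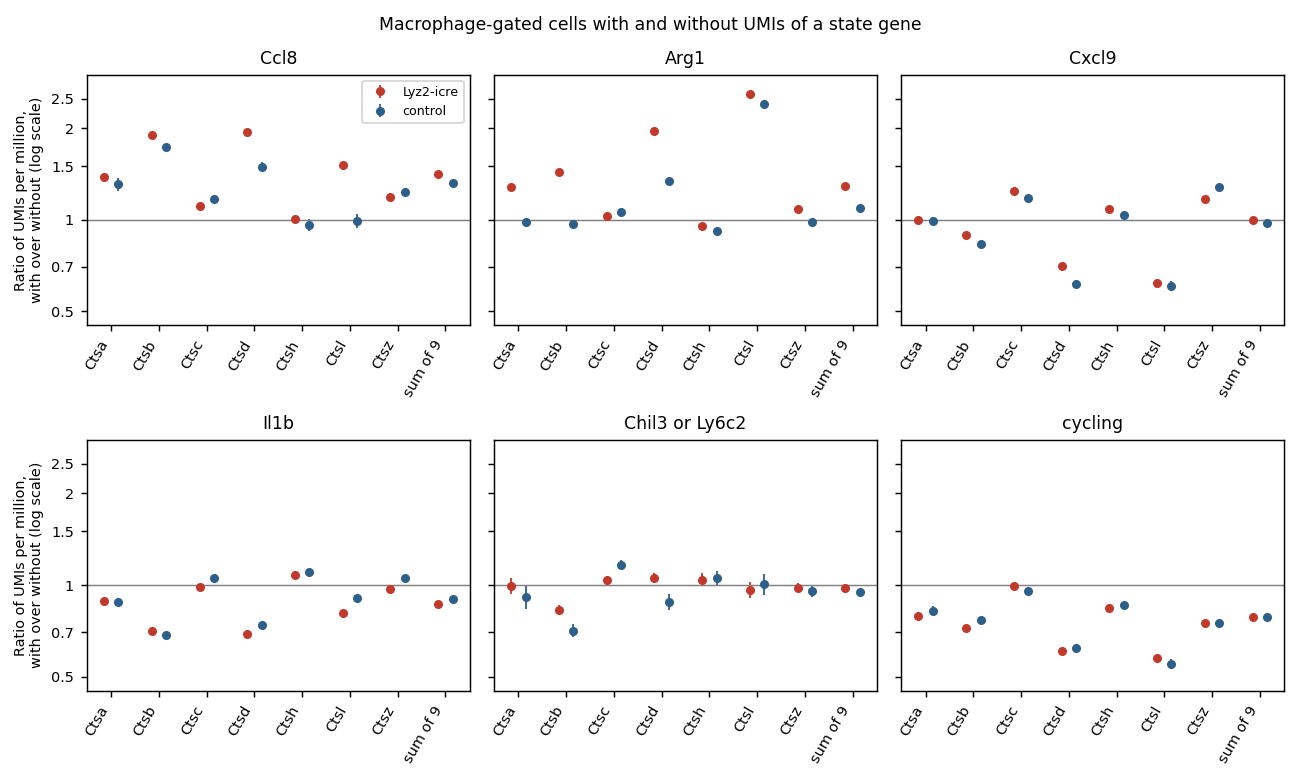
Ratio of CPM in macrophages with a state marker over those without it, for 7 cathepsins, the sum of all 9 and 6 states, Lyz2-icre beside control, with 95% intervals of counting error (log axis). Ctsl with Arg1 lies at 2.59 (Lyz2-icre) and 2.40 (control), and Ctsl in cycling cells at 0.575 (Lyz2-icre) and 0.550 (control).

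Over all classes, 76 pairs of a member and a class reached 10 CPM in the 10 compared. Of these, 8 were past 1.5-fold, 4 higher and 4 lower in Lyz2-icre. The share of all genes at that level past 1.5-fold, higher and lower in turn, was 8.32% and 6.78% in monocytes, 14% and 17.5% in cDC1, the conventional dendritic cells that cross-present antigen, 9.76% and 9.17% in cDC2, the conventional dendritic cells that mainly prime CD4 T cells, and 12.9% and 14.2% in migratory dendritic cells. It was 6.42% and 11.6% in NK cells, 5.98% and 12% in CD8 T cells, 12.8% and 16% in regulatory T cells, 19.2% and 24.4% in other T cells, and 4.89% and 7.56% in fibroblast or tumour cells. With the top cell of each library left out, 2 of the 8 were still past 1.5-fold with an interval clear of 1, Ctsl in monocytes and Ctsw in cDC2, which then had 1 UMI in control.

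Monocyte-gated cells, which carry Ly6c2, Plac8, Chil3, Ccr2 or Vcan and little C1q, had 297 Ctsl UMIs in 430 Lyz2-icre cells and 799 in 262 control cells. The levels were 188 CPM (Lyz2-icre) and 459 CPM (control), a ratio of 0.408 (0.356 to 0.467), the reverse of the direction in macrophages. Without the cell with most Ctsl in each library the ratio was 0.421 (0.366 to 0.484). With gate thresholds doubled the log2 ratio was -0.62, against -1.27 at the thresholds used, so its size depends on the gate. The ratio was 0.407 in female and 0.604 in male cells, and 25.7% of thinned Lyz2-icre monocytes had a Ctsl UMI, against 37.8% of thinned control monocytes. Ctsd followed with 406 CPM (Lyz2-icre) and 587 CPM (control), a ratio of 0.691. Ctsc, the leading member in monocytes, stood at 1421 CPM (Lyz2-icre) and 1499 CPM (control), Ctsh at 664 CPM (Lyz2-icre) and 680 CPM (control), and Ctsz at 1045 CPM (Lyz2-icre) and 1013 CPM (control).

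Within the monocyte gate, marker levels differed between the libraries. Of the genes that set the gate, Ly6c2 stood at 1623 CPM in Lyz2-icre and 872 CPM in control, and Ccr2 at 1215 CPM (Lyz2-icre) and 1105 CPM (control). Others were lower in Lyz2-icre, with Chil3 at 1501 CPM (Lyz2-icre) and 2135 CPM (control) and Plac8 at 3307 CPM (Lyz2-icre) and 3719 CPM (control). Arg1 stood at 496 CPM (Lyz2-icre) and 1192 CPM (control), and Spp1 at 10.1 CPM (Lyz2-icre) and 974 CPM (control). Median UMIs were 3504 (Lyz2-icre) and 6443.5 (control). Whether the gate held the same mix of cells in both libraries was not tested. The part of these differences in the Ctsl ratio was not tested either.

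Neutrophil-gated cells were too few to compare. Ctsc, which activates the serine proteases of neutrophil granules, stood at 849 CPM in Lyz2-icre (42 UMIs) and 282 CPM in control (103 UMIs), and Ctsd at 667 CPM (Lyz2-icre) and 632 CPM (control). Neither library had a Ctsk UMI in them, where 3 counts would be 60.7 CPM in Lyz2-icre and 8.21 CPM in control. In these cells the gate gene S100a8 stood at 23291 CPM (Lyz2-icre) and 43404 CPM (control). The macrophage gene Pf4 stood at 162 CPM in Lyz2-icre (8 UMIs) and 90.3 CPM in control (33 UMIs). The part of macrophage RNA in the Ctsc values was not tested.

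Dendritic cells carried a different set. Ctsz and Ctsh led in migratory dendritic cells, with Ctsz at 38.4% (Lyz2-icre) and 40.2% (control) of cathepsin UMIs and Ctsh at 30.6% (Lyz2-icre) and 33.3% (control). Their levels hardly differed, with Ctsz at 810 CPM (Lyz2-icre) and 807 CPM (control) and Ctsh at 647 CPM (Lyz2-icre) and 669 CPM (control). Ctsc was higher in Lyz2-icre in each of the 3 dendritic classes compared. It stood at 457 CPM (Lyz2-icre) and 350 CPM (control) in cDC1, at 612 CPM (Lyz2-icre) and 452 CPM (control) in cDC2, with a ratio of 1.35 (1.2 to 1.52), and at 261 CPM (Lyz2-icre) and 195 CPM (control) in migratory dendritic cells. None of these Ctsc ratios reached 1.5. Ctsw in cDC2, 14 UMIs in Lyz2-icre and 2 in control, and Ctsd in cDC1, 22 UMIs in Lyz2-icre and 55 in control, were past 1.5-fold on few molecules. Without the top cell of each library the Ctsd ratio in cDC1 was 0.727 (0.388 to 1.32).

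Lymphocytes were set apart by Ctsw (chr19:5465043-5468507), a cysteine protease of NK and cytotoxic T cells whose substrates are not well known. NK cells had the highest level, 649 CPM in Lyz2-icre (591 UMIs in 199 cells) and 755 CPM in control (983 UMIs in 187 cells), a ratio of 0.859 (0.774 to 0.952). CD8 T cells followed with 355 CPM (Lyz2-icre) and 377 CPM (control), a ratio of 0.942 (0.827 to 1.07) whose interval includes 1. Other T cells stood at 323 CPM (Lyz2-icre) and 311 CPM (control), which overlaps CD8 T cells within counting error, and regulatory T cells at 204 CPM (Lyz2-icre) and 176 CPM (control). Macrophages had 3.91 CPM (Lyz2-icre) and 2.63 CPM (control).

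After thinning to 2000 UMIs per cell, 69.8% of Lyz2-icre NK cells and 75.6% of control NK cells had a Ctsw UMI, against 0.585% of Lyz2-icre and 0.287% of control macrophages, which should lack the gene. Before thinning, the shares in NK cells were 85.9% (Lyz2-icre) and 93.6% (control), at medians of 4138 UMIs (Lyz2-icre) and 6399 UMIs (control). Over all kept cells Ctsw stood at 24.0 CPM (Lyz2-icre) and 34.4 CPM (control). NK cells made up 1.43% of Lyz2-icre and 2.14% of control cells, and each T cell class was also a smaller share in Lyz2-icre. The part of these shares in the Ctsw level was not tested.

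NK cells also carried much Ctsd, 918 CPM in Lyz2-icre and 785 CPM in control, a level near that of macrophages, and it made up 45.1% (Lyz2-icre) and 38.7% (control) of their cathepsin UMIs. In CD8 T cells Ctsd stood at 565 CPM (Lyz2-icre) and 594 CPM (control). Cathepsin C, which activates granzymes, was low in both, 136 CPM (Lyz2-icre) and 135 CPM (control) in NK cells and 167 CPM (Lyz2-icre) and 189 CPM (control) in CD8 T cells. Of its substrates in NK cells, Gzma stood at 2739 CPM (Lyz2-icre) and 1393 CPM (control) and Gzmb at 1947 CPM (Lyz2-icre) and 1154 CPM (control). Gzmc, the most abundant of these, stood at 10516 CPM (Lyz2-icre) and 9546 CPM (control).

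Ratios past 1.5-fold in lymphocytes rested largely on single cells. Of 74 Ctsl UMIs in control regulatory T cells, 42 came from 1 cell, and without the top cell of each library the ratio was 0.726 (0.340 to 1.45) in place of 0.371. Of 87 Ctsc UMIs in other T cells of control, 60 came from 1 cell, and without the top cells the ratio was 1.31 (0.733 to 2.33) in place of 0.509. Ctsl in NK cells, 34 UMIs in Lyz2-icre and 30 in control, had a ratio of 0.804 without them, in place of 1.62. Ctsl in CD8 T cells had 1.75 (0.993 to 3.13) in place of 1.96. Ctsl in NK cells was 8.2% of the macrophage level in Lyz2-icre and 6.1% in control, where the macrophage gene Ms4a7 was at 5.9% (Lyz2-icre) and 4.2% (control). The part of macrophage RNA in these Ctsl values was not tested.

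Fibroblast or tumour cells, which remained after the CD45 sort in 232 Lyz2-icre and 162 control cells, led with Ctsl, 37.2% (Lyz2-icre) and 37.3% (control) of their cathepsin UMIs. Its level was 580 CPM in Lyz2-icre and 646 CPM in control, above that in macrophages of both libraries. Ctsb stood at 211 CPM (Lyz2-icre) and 263 CPM (control).

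Cathepsin K (Ctsk, chr3:95499256-95509362), the collagen-cutting protease of bone-resorbing osteoclasts, was the member with the largest difference over all kept cells, and few cells held it. It stood at 13.3 CPM in Lyz2-icre (1310 UMIs) and 46.9 CPM in control (4127 UMIs), a ratio of 0.284, where 0.474% of 8231 genes were higher and 2.25% lower in Lyz2-icre by 1.5-fold. Only 145 Lyz2-icre cells (1.04%) and 223 control cells (2.56%) had a Ctsk UMI. Cells were not thinned for the Ctsk shares, and control cells were deeper, with a median of 9379.5 UMIs against 6374 UMIs in Lyz2-icre. The part of depth in these shares was not tested. Cells with 5 or more numbered 19 in Lyz2-icre (0.137%, exact interval 0.0822 to 0.213%) and 40 in control (0.459%, 0.328 to 0.624%). These few cells held 87.7% of the Lyz2-icre and 95.3% of the control Ctsk UMIs, up to 199 in a Lyz2-icre cell and 250 in a control cell.

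Most of the Ctsk UMIs lay in cells that no gate took, 65.9% in Lyz2-icre and 87.7% in control. The rest lay mainly in the macrophage gate, with 411 UMIs (Lyz2-icre) and 451 UMIs (control). With this gate the macrophage log2 ratio of Ctsk was -0.26. With macrophages gated on other markers, an alternative chosen after seeing the data, it was -2.19. Over all kept cells, the level in female cells was 12.7 CPM (Lyz2-icre) and 60.8 CPM (control). In male cells it was 21.0 CPM (Lyz2-icre) and 38 CPM (control), so it was lower in Lyz2-icre in both sexes. Within macrophages the sexes went apart, with 2.77 CPM (Lyz2-icre) and 7.84 CPM (control) in female cells and 6.37 CPM (Lyz2-icre) and 1.73 CPM (control) in male cells, at levels set by a few cells.

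**Figure D5:**
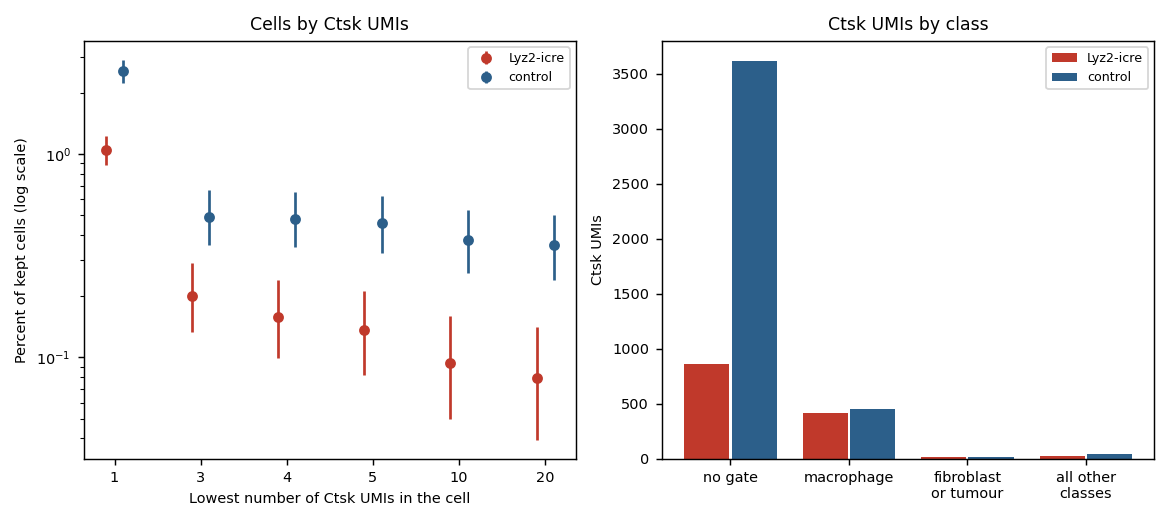
Left, percent of kept cells (log axis) with at least the given number of Ctsk UMIs, with 95% exact binomial intervals, Lyz2-icre beside control; right, Ctsk UMIs by cell class, with bars from 0. At 5 or more UMIs the shares are 0.137% (Lyz2-icre) and 0.459% (control), and most UMIs lie in cells that no gate took. Cells were not thinned.

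Cells with 5 or more Ctsk UMIs also carried Acp5, the tartrate-resistant acid phosphatase, at 3151 CPM (Lyz2-icre) and 5786 CPM (control), against 39.6 CPM in other control cells. Mmp9, a gelatin-cutting metalloprotease, stood at 953 CPM (Lyz2-icre) and 3303 CPM (control) in them, the proton pump subunit Atp6v0d2 at 649 CPM (Lyz2-icre) and 877 CPM (control), and the fusion proteins Ocstamp at 76.1 CPM (Lyz2-icre) and 135 CPM (control) and Dcstamp at 76.1 CPM (Lyz2-icre) and 140 CPM (control). Col1a1, the collagen gene of fibroblasts, had UMIs in 3 of the 19 Lyz2-icre cells and 2 of the 40 control cells, but those 3 held 255 UMIs, which puts the group at 1141 CPM in Lyz2-icre and 137 CPM in control. Among all kept cells, those with 10 or more UMIs of Col1a1 and Col1a2 together held few of the Ctsk UMIs. They held 25 in Lyz2-icre (1.91%), at most 10 in a cell, and 18 in control (0.436%), at most 7 in a cell. The part of collagen-carrying cells in the Ctsk difference between the libraries was not tested. The macrophage marker Csf1r had UMIs in 16 of the 19 Lyz2-icre cells and 37 of the 40 control cells, at 492 CPM (Lyz2-icre) and 659 CPM (control). C1qa, a gene of the macrophage gate, had UMIs in 14 (Lyz2-icre) and 31 (control) of them, at 1889 CPM (Lyz2-icre) and 681 CPM (control). Whether they are macrophages that the gate missed was not tested. No markers for cells with 5 or more Ctsk UMIs were listed in advance, and no cell type name is given to them.

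A rule that does not use Ctsk was chosen after the Ctsk values were seen. It required 5 or more Acp5 UMIs, 2 or more of Atp6v0d2, Ocstamp and Slc9b2 together, and under 2 of Col1a1 and Col1a2. It found 27 Lyz2-icre cells (0.194%) and 47 control cells (0.539%). The ratio of shares was 0.360 (0.216 to 0.590), again in cells that were not thinned. Of these cells, 15 (Lyz2-icre) and 15 (control) were in the macrophage gate, and C1qa stood at 3764 CPM (Lyz2-icre) and 1528 CPM (control). Atp6v0d2 was itself higher in Lyz2-icre macrophages, at 11.6 CPM against 3.38 CPM in control. Whether the rule took the same mix of cells in both libraries was not tested. In the cells it found, Ctsk stood at 3100 CPM in Lyz2-icre and 5379 CPM in control. Ctsk UMIs were seen in 15 of the 27 Lyz2-icre cells, with a median of 1 and a maximum of 199 per cell, and in 37 of the 47 control cells, with a median of 70 and a maximum of 250, so a few cells carry the Lyz2-icre level.

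Across the 10 classes in both libraries (20 points, 6117 genes at 50 CPM or more somewhere), the genes whose levels followed each cathepsin most closely were named by Pearson's r of log2(CPM + 5). The 20 points share libraries, and r is a description with no test. Ctsw went with Klrc2 (0.990), Sh2d2a (0.989) and Cd160 (0.988), genes of NK and T cells. Ctsc went with Cd14 (0.970), Sirpb1c (0.967) and Fcgr2b (0.953), genes of myeloid cells. Ctsb went with Lgmn (0.935), which encodes another lysosomal cysteine protease, Mfsd1 (0.934) and C5ar1 (0.921). Ctsl went with Ccl2 (0.948), Rnase4 (0.946) and Nt5dc2 (0.943).

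Ctsh and Ctsz were each other's closest members at 0.979, and Ctsh also went with Ifi30 (0.969), a lysosomal thiol reductase of antigen processing. Ctsa went with Fam20c (0.927) and Fcgr1 (0.920), and Ctsd with Pld3 (0.895) and Dgkz (0.895), the weakest likeness of the 8 ranked. Ctsk was below 50 CPM in every class and was not ranked.

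The rest of the lysosomal pathway was described in macrophages from lists of genes by role. Among 16 vacuolar ATPase genes at 10 CPM or more, which encode the pump that acidifies lysosomes, 15 were higher and 1 lower in Lyz2-icre, with a median log2 ratio of 0.15. Only Atp6v0d2 was past 1.5-fold, at 11.6 CPM (Lyz2-icre) and 3.38 CPM (control). Among lysosomal membrane and cofactor genes 12 were higher and 2 lower of 14, with a median of 0.12. They included Psap, the precursor of the saposins that help to degrade sphingolipids, at 2915 CPM (Lyz2-icre) and 2346 CPM (control), and Cd63 at 502 CPM (Lyz2-icre) and 406 CPM (control). Of all genes tested, 3598 were higher and 4322 lower, with a median of -0.02.

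Other cathepsins and lysosomal peptidases gave 7 higher and 2 lower of 9, with a median of 0.12, and none past 1.5-fold. Ctss, the cathepsin that processes the MHC class II invariant chain, is outside the naming rule and was added for its known role: it stood at 2488 CPM (Lyz2-icre) and 2280 CPM (control), above every one of the 9. The lowest was Napsa, an aspartic protease, at 84.5 CPM (Lyz2-icre) and 109 CPM (control). Of 4 cathepsin inhibitors 3 were higher, among them Cstb, the cytosolic stefin B, at 549 CPM (Lyz2-icre) and 433 CPM (control).

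Glycosidases and lipid hydrolases were evenly divided, with 14 higher and 11 lower of 25 and a median of 0.03. The lowest was Arsb, a sulfatase, with a ratio of 0.697. Sorting receptors and transcription factors gave 7 higher and 4 lower of 11, with a median of 0.03. Tfec, a relative of TFEB, stood at 29.6 CPM (Lyz2-icre) and 19.7 CPM (control), a ratio of 1.5. Of the granule proteases that cathepsin C activates, 1 reached 10 CPM in macrophages, Gzmc, with 44.8 CPM (Lyz2-icre) and 11.1 CPM (control), against 10516 CPM (Lyz2-icre) and 9546 CPM (control) in NK cells. How much of the macrophage Gzmc came from NK cell RNA or doublets was not tested.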

How the data were processed

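The authors deposited UMI counts per gene and cell for 2 libraries of the 10x 3′ V 3 kit. Counting was done with Cell Ranger 8.0.1 per the file headers, after bcl2fastq 5.0.1 with build mm10 per the submitters' processing notes; the annotation release is not given in the sources used here. Python 3.11.15 with numpy 2.4.6, scipy 1.17.1 and pandas 2.3.3 was used here. Barcodes under 300 genes or 500 UMIs, or with over 15% of UMIs from mitochondrial genes, were dropped, which left 98256831 UMIs (Lyz2-icre) and 88047097 UMIs (control). Cells were gated by marker UMIs per 10000, with thresholds set on the marker distributions (macrophages at 40 or more of C1qa, C1qb and C1qc, other classes below 15). Cells passing more than 1 gate, 710 (Lyz2-icre) and 510 (control), were set aside. The exception was cells passing the macrophage gate and a monocyte, cDC1 or cDC2 gate, which stayed in the macrophage class. No doublet caller was run, and 1447 (Lyz2-icre) and 1047 (control) cells fell in no class. Counts were summed per class and library and divided by the class total (CPM). Intervals are 95% exact Poisson, exact conditional binomial for ratios and Clopper-Pearson for shares. The floor for a count of 0 was 3 counts. Log2 ratios have 5 CPM added. Genes at 10 CPM or more in either library were called past 1.5-fold. For shares, except those of cells chosen by Ctsk or Acp5 UMIs, cells were thinned to 2000 UMIs, which left out 1723 (Lyz2-icre) and 611 (control) cells. The ratio intervals and the 1.5-fold calls were run on simulated Poisson counts with known fold changes. The filters, gates, thinning and splits by state and sex were not tested in that way. All 9 members are described, and up to 3 highest and 3 lowest genes of a list were open to naming. Members and lists were chosen with earlier results of these data known. Gene positions are from GENCODE for mm10.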

Additional observations from a re-analysis of the deposited data

Results flagged for a closer look

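In macrophages, 3 of the 7 members at 10 CPM or more moved in opposite directions in female and male cells, with both counting intervals clear of 1; the difference between the sexes was not tested, since each sex of each genotype comes from 1 library. The log2 ratio of Lyz2-icre over control was 0.41 in female and -0.05 in male cells for Ctsl, 0.22 in female and -0.05 in male cells for Ctsz, and -0.12 in female and 0.08 in male cells for Ctsh. In monocytes the same held for Ctsc, with -0.22 in female and 0.26 in male cells.

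Some state differences in macrophages pointed in opposite directions in the libraries, and these were not tested either. The log2 ratio of cells with Arg1 over cells without it was 0.52 (Lyz2-icre) and -0.05 (control) for Ctsb, and 0.12 (Lyz2-icre) and -0.03 (control) for Ctsz. With Il1b over without, it was -0.02 (Lyz2-icre) and 0.07 (control) for Ctsc, and -0.04 (Lyz2-icre) and 0.08 (control) for Ctsz. With Chil3 or Ly6c2 over without, Ctsd was at 0.08 (Lyz2-icre) and -0.18 (control).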

How the results depend on the processing

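The summed macrophage ratio of 1.07 became 1.08 with gate thresholds doubled, 1.07 with them halved, 1.05 as a mean of per-cell CPM, 1.09 with median-of-ratios scaling, 1.05 after thinning, 1.08 in female and 1.06 in male cells, and 1.06 with macrophages gated on other markers, an alternative chosen after seeing the data. Over all kept cells 1.1 became 1.12 (female) and 1.07 (male). The 159 genes past 1.5-fold in macrophages became 653 with genes from 1 CPM and 32 at 2-fold. Of 196 alternatives for single members 8 changed sign. In 5, whose main counting interval excluded 1, only male cells were used, and macrophage log2 ratios were 0.075 for Ctsh, 0.76 for Ctsk, -0.054 for Ctsl, -0.15 for Ctsw and -0.051 for Ctsz. The other 3, with main intervals that include 1, were Ctsb in macrophages with median-of-ratios scaling (0.0056) and the other markers (0.0008) and Ctsw in male CD8 T cells (0.09). The monocyte log2 ratios ran between -1.30 and -0.62 for Ctsl, with -0.62 at doubled gate thresholds, and between -0.61 and -0.08 for Ctsd, with -0.08 in cells of 6000 UMIs or more, chosen after seeing the data. No paired analysis was possible because each genotype has 1 library, and for the same reason none could be left out. Counting error is smallest in macrophages and wide in cDC1, with under 60 cells a library.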
